A study of Caenorhabditis elegans with 18 samples.

Results

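The feeding response of newly hatched Caenorhabditis elegans larvae that lack rsks-1 was set against the feeding response of wild-type larvae. rsks-1 encodes the worm's S6 kinase, and the question is which genes answer food differently in its absence. The comparison used the 12 of 18 libraries that the labels assign to rsks-1 or wild type. They fall into 4 groups of 3 libraries each. rsks-1 fed and rsks-1 starved larvae carried the allele ok1255, and N2 fed and N2 starved larvae were of the wild-type strain N2. The other 6 libraries are fed and starved larvae of the mutant raga-1(ok386). They share the fit and serve as a second mutant beside which the rsks-1 values are set. All libraries are bulk RNA-seq of whole larvae in the first larval stage. Eggs from bleached adults were kept for 24 h in M9 buffer, where the larvae hatched and arrested without food. Fed larvae then spent 4 h on OP50 bacteria, and all strains were grown at 20 °C. Each mutant is represented by 1 allele. Nothing in the labels tells whether libraries of a group are separate cultures, and the spread behind every p-value may thus be only technical.

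In animals, food activates the kinase complex TORC1, whose nutrient signal passes through the Rag GTPases, among them RAGA-1. S6 kinase is a direct substrate of TORC1 and phosphorylates ribosomal protein S6 and regulators of translation. Worms without rsks-1 are viable and are known for slow growth, small body size and long adult life. Starved first-stage larvae hold their development in arrest and resume growth when they feed.

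The targeted gene was checked first. rsks-1 (gene identifier WBGene00012929; chromosome III, 11245120 to 11252281 in the WBcel235 annotation) had 27.8, 22.8 and 23.8 CPM (counts scaled to a common library size) in the 3 rsks-1 fed libraries and 36.4, 34.6 and 41.7 CPM in the rsks-1 starved libraries. It had 174, 161 and 178 CPM in N2 fed libraries and 196, 178 and 185 CPM in N2 starved libraries. Every rsks-1 library lay far below every N2 library, and some signal remained in the mutant. The gene's level thus matched the labelled genotype in all 12 libraries. The total of expected counts was 10840870 to 16714185 in rsks-1 fed libraries, 11313180 to 15867607 in rsks-1 starved libraries, 9929323 to 11246940 in N2 fed libraries and 10261804 to 13012442 in N2 starved libraries. At these depths 14073 genes passed the filter on low counts. The common biological coefficient of variation was 0.0416, so replicates lay close together and small differences could pass the test.

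For each gene the log2 change on feeding was estimated in rsks-1 and in N2, and the N2 change was subtracted from the rsks-1 change in edgeR's quasi-likelihood fit. A positive difference means that feeding raised the gene more, or lowered it less, in rsks-1 than in N2. A gene was called when its Benjamini-Hochberg adjusted p over all 14073 genes was below 0.05. The difference was called for 3737 genes, or 26.6% of those tested. It was positive for 1514 of them (10.8% of tested genes) and negative for 2223 (15.8%). With scaling by library totals alone, the median difference of all genes moved by 0.102 on the log2 scale, and 2351 genes were positive and 1439 negative. The share of positive calls was then 62.0%, against 40.5% with the scaling used here, so the balance of the directions over all genes depends on scaling. A difference of at least 2-fold was called for 341 genes in the positive and 224 in the negative direction. Feeding itself changed 9971 genes (70.9%) in rsks-1 and 10400 genes (73.9%) in N2.

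The most frequent outcome was a response of the same direction that was smaller in rsks-1. This held for 2174 of the 3737 called genes, and at their median 0.615 of the N2 log2 change was kept in rsks-1. The response was lost in 423 genes, where at most 0.25 of the N2 change was left in either direction. It was reversed in 153 genes, meaning that both strains changed on feeding and in opposite directions. Under library totals 147 genes were reversed, and how many of them are among the 153 was not examined. The response was larger in rsks-1 in 550 genes, with a median of 1.584 times the N2 change. A further 318 genes changed on feeding in rsks-1 while the N2 change was not called, and the rest fell in none of these classes. These classes describe genes already called and carry no test of their own.

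**Figure D1:**
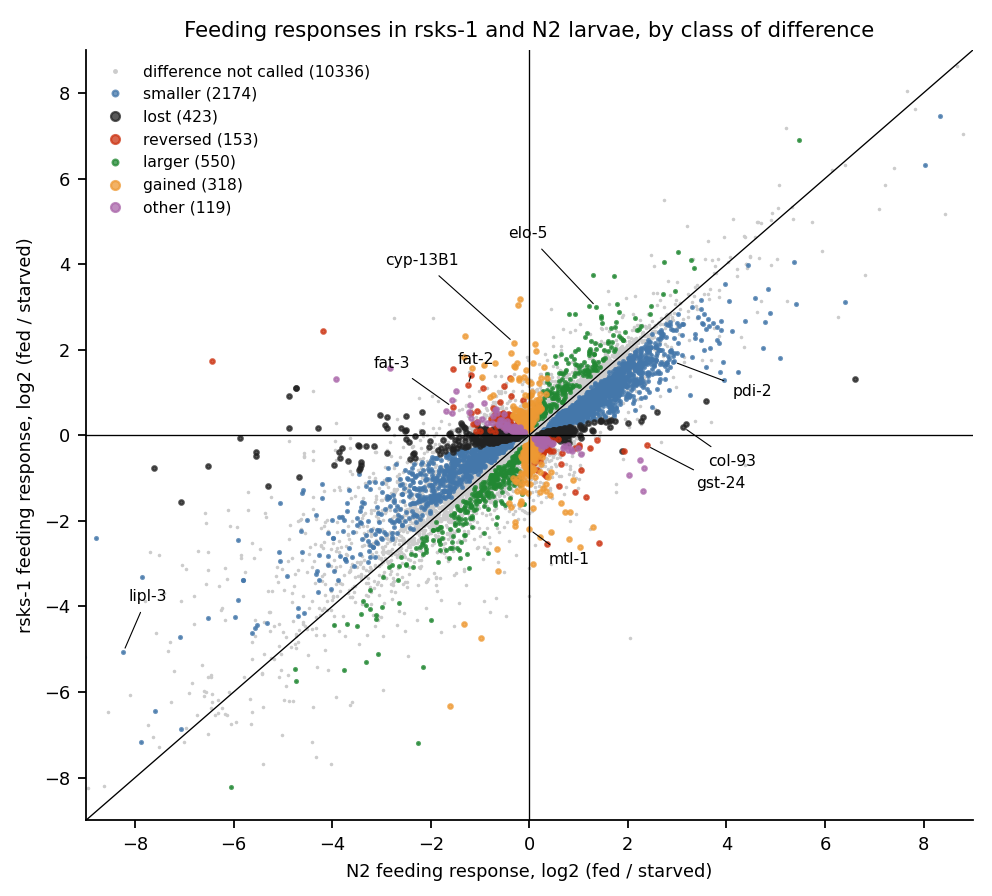
Each point is 1 of the 14073 tested genes; the horizontal axis is the log2 change on feeding in N2 and the vertical axis is that in rsks-1, with colours for the class and grey for the genes without a called difference. Of the 3737 called genes, 2174 lie between the horizontal axis and the diagonal of equal responses because their response was smaller in rsks-1, and the 153 reversed genes lie in the upper left and lower right quadrants; 16 genes lie outside the axes.

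Smaller responses were more often responses that feeding raised in N2, 1402 genes against 772 that feeding lowered. Lost responses were spread over both directions, with 191 genes that feeding raised in N2 and 232 that it lowered. Reversed responses comprised 78 genes raised and 75 lowered on feeding in N2. Larger responses comprised 221 raised and 329 lowered genes. These splits were not recounted under library totals, which gave 2351 positive and 1439 negative differences in all. A smaller rise or a larger fall is a negative difference, so the splits may depend on scaling. Among the 4950 genes that changed at least 2-fold on feeding in N2, 1887 had a called difference, of which 1514 were smaller, 213 larger, 123 lost and 22 reversed. By these limits, loss or reversal of a strong N2 response was therefore uncommon beside a smaller response of the same direction. Lost genes could keep part of the N2 change, and a looser limit moves genes from smaller to lost, as given with the processing.

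The difference of responses is, by arithmetic, the rsks-1 to N2 difference in fed larvae minus that in starved larvae, so each called gene was assigned to the state in which the levels differed. The fed level carried the difference in 2041 of 3737 genes (54.6%). In these genes rsks-1 fed larvae were lower than N2 fed larvae in 1193 and higher in 848. The starved level carried it in 748 genes (20.0%), and rsks-1 starved larvae were higher than N2 starved larvae in 517 of them and lower in 231. In 372 genes the levels differed in both states in opposite directions, in 144 they differed in both in the same direction by unlike amounts, and in 432 neither state met the rule. Over all genes, rsks-1 was higher than N2 in 2452 genes (17.4%) and lower in 3175 (22.6%) when fed, and higher in 2120 (15.1%) and lower in 1672 (11.9%) when starved. Scaling by library totals turned both balances round, with 3110 genes higher and 2354 lower when fed and 1813 higher and 2180 lower when starved.

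The fed level was the most frequent site in every class, with 243 of 423 lost, 1227 of 2174 smaller, 88 of 153 reversed, 252 of 550 larger and 163 of 318 gained genes. The starved level carried the difference in 67 lost, 425 smaller, 30 reversed, 142 larger and 61 gained genes. Among smaller responses with the starved level different, rsks-1 starved larvae were higher in 328 genes and lower in 97. This split too was not recounted under library totals.

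**Figure D2:**
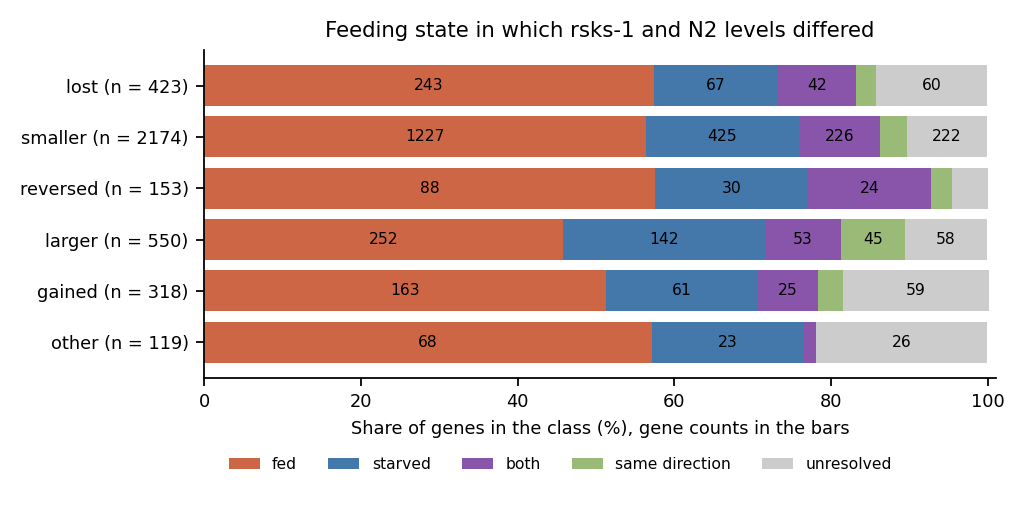
Each bar is a class of called genes (lost, smaller, reversed, larger, gained and other, from top to bottom) and shows the percentage of its genes for each state in which rsks-1 and N2 levels differed, with gene counts in the bars. The fed level is the biggest share in each class, 1227 of 2174 genes among smaller and 243 of 423 among lost responses.

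As a measure of overall size, the responses were compared over the 2155 genes that changed at least 2-fold on feeding in raga-1 larvae, a choice that uses neither rsks-1 nor N2 libraries. The slope of the rsks-1 change on the N2 change was 0.786 (jackknife SE 0.0616 over libraries). The median ratio of the rsks-1 to the N2 change was 0.868 (jackknife SE 0.0193). Over the 597 genes that changed at least 4-fold in raga-1 the slope was 0.777 and the ratio 0.827. In simulated data with the rsks-1 change set to 0.8 of the N2 change, the slope recovered was 0.755, so this slope can come out too low. With at least 10 CPM in a group both the slope and the ratio were higher, as given with the processing. These values are a description of size and carry no test.

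The largest differences among named genes of at least 10 CPM were of both kinds. col-93, a cuticle collagen, had 21.9, 22 and 19.5 CPM in rsks-1 fed libraries and 17.1, 19.4 and 18.6 CPM in rsks-1 starved libraries, against 23.8, 24.9 and 27.9 CPM in N2 fed and 1.92, 3.25 and 3.45 CPM in N2 starved libraries. The 3 N2 starved libraries were low and the rsks-1 starved libraries already lay near the fed level, so the response was lost through the starved level (difference -2.92, SE 0.16, adjusted p = 1.57e-35). mtl-1, a metallothionein gene, showed a response in rsks-1 with none called in N2. It had 12, 10.5 and 11.8 CPM in rsks-1 fed and 51.3, 50.7 and 54.6 CPM in rsks-1 starved libraries, against 14, 15.8 and 14.5 CPM in N2 fed and 13.4, 14 and 16.51 CPM in N2 starved libraries. The rsks-1 starved libraries stood apart from all others (-2.20, SE 0.15, adjusted p = 3.65e-27).

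cyp-13B1, a cytochrome P450, gained a response through the fed level. It had 38.8, 43.6 and 41.4 CPM in rsks-1 fed libraries and 10.9, 8.2 and 8.86 CPM in rsks-1 starved libraries, against 6.62, 5.26 and 6.83 CPM in N2 fed and 8.89, 7.5 and 7.12 CPM in N2 starved libraries. Only the rsks-1 fed libraries were high, and its difference was 2.48, SE 0.19, adjusted p = 1.42e-23. gst-24, a glutathione S-transferase, was raised on feeding in N2 and lowered slightly in rsks-1. It had 26.7, 28.8 and 27.7 CPM in rsks-1 fed and 33.1, 31.1 and 34.5 CPM in rsks-1 starved libraries, against 126, 115 and 105 CPM in N2 fed and 23.4, 21.8 and 21.5 CPM in N2 starved libraries. The N2 fed libraries were the high ones, and the difference was -2.62, SE 0.10, adjusted p = 1.49e-49.

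Strong positive differences also came from genes that feeding nearly switched off in N2. lipl-3, a lysosomal lipase known to be induced by fasting, averaged 2.67 ± 0.145 CPM in rsks-1 fed and 90.6 ± 4.2 CPM in rsks-1 starved larvae, against 0.229 ± 0.124 CPM in N2 fed and 70.8 ± 2.71 CPM in N2 starved larvae (SD, n = 3 each). It fell by 5.07 in rsks-1 and fell by 8.24 in N2 on the log2 scale, so the fall was smaller in rsks-1 (3.17, SE 0.42, adjusted p = 1.98e-10). For cyp-37B1 the N2 fed libraries held only 2 counts in all. The N2 starved level was 594 times the N2 fed level (95% counting interval 164 to 4910), and the rsks-1 fed level was 21 times the N2 fed level (5.56 to 177). For col-153 with 3 counts in N2 fed libraries these ratios were 99 (33.6 to 482) and 4.27 (1.25 to 22.6). The call of col-153 was lost with DESeq2 (adjusted p = 0.0519) and, in edgeR's fit, without N2 fed replicate 1 (adjusted p = 0.144) or 3 (adjusted p = 0.0546). pud-1.1 and clec-15 also ranked among the 10 highest, but the call of pud-1.1, which has close copies, was lost with DESeq2 (adjusted p = 0.341), and clec-15 is listed under a pair of identifiers with the same values, so reads may have been divided or shared in the authors' estimates.

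Most genes that make and modify fatty acids rose more, or fell less, on feeding in rsks-1, except fat-5, which fell more, and fasn-1, elo-4 and elo-9, whose difference was not called. The desaturases fat-1, fat-2, fat-3 and fat-4, which make polyunsaturated fatty acids, changed direction. Of 17 desaturase, elongase and associated lipid synthesis genes tested, 13 had a positive and 1 a negative difference, and the median was 0.93 on the log2 scale beside -0.005 over all genes. For this and every later list, 10.8% of all genes had a positive and 15.8% a negative difference. Scaled by library totals the list's counts were again 13 and 1. Of these 14, 5 were reversed, 7 larger and 2 smaller, and the starved level carried the difference in 8, both states in 3, the fed level in 2 and neither by the rule in 1. fat-2, the delta-12 desaturase that makes linoleic acid (WBGene00001394; chromosome IV, 13323873 to 13326395, WBcel235), had 2130, 2159 and 2121 CPM in rsks-1 fed and 943, 960.2 and 959.9 CPM in rsks-1 starved libraries. It had 704, 702 and 713 CPM in N2 fed and 1662, 1657 and 1721 CPM in N2 starved libraries. Feeding raised fat-2 in rsks-1 and lowered it in N2, without overlap between fed and starved libraries of either strain.

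The fat-2 difference of responses was 2.41, SE 0.039 (adjusted p = 9.39e-91), with 1.6 between rsks-1 and N2 when fed and -0.82 when starved. fat-3, the delta-6 desaturase (chromosome IV, 9803023 to 9806119, WBcel235), had 1018, 1005 and 995 CPM in rsks-1 fed and 638, 638 and 638 CPM in rsks-1 starved libraries, against 376, 367 and 360.3 CPM in N2 fed and 1082, 1078 and 1090.2 CPM in N2 starved libraries. The pattern was that of fat-2, with the fed libraries above the starved ones in rsks-1 and below them in N2 (2.22, SE 0.042, adjusted p = 5.84e-83). Its neighbour fat-4 (chromosome IV, 9799429 to 9802226), the delta-5 desaturase, averaged 919 ± 2.93 CPM in rsks-1 fed and 594 ± 8.71 CPM in rsks-1 starved larvae, and 356 ± 9.4 CPM in N2 fed and 592 ± 6.17 CPM in N2 starved larvae. The starved levels of fat-4 differed by 0.01 (SE 0.03) and the fed levels by 1.37 (SE 0.031), so the reversal sat at the fed level (1.36, SE 0.043, adjusted p = 3.02e-58).

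The other members of the list are given as well, beyond the 4 with the largest differences, and were singled out after their values had been seen. fat-1, the omega-3 desaturase, averaged 1375 ± 21.1 CPM in rsks-1 fed and 775 ± 10.5 CPM in rsks-1 starved larvae, and 621 ± 8.46 CPM in N2 fed and 681 ± 10.3 CPM in N2 starved larvae. It too was reversed, at the fed level (0.96, SE 0.04, adjusted p = 2.05e-45). The delta-9 desaturases, which act at the head of the pathway, did otherwise. fat-6 fell on feeding in both strains and less so in rsks-1, with changes of -0.76 in rsks-1 and -1.30 in N2. fat-7 rose in both, by 4.27 in rsks-1 and 3.03 in N2, at mean levels of at most 13.8 CPM. fat-5, which acts on palmitic acid, fell more in rsks-1 (-2.66) than in N2 (-2.10) and was the single negative member (-0.56, SE 0.16, adjusted p = 0.00568).

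**Figure D3:**
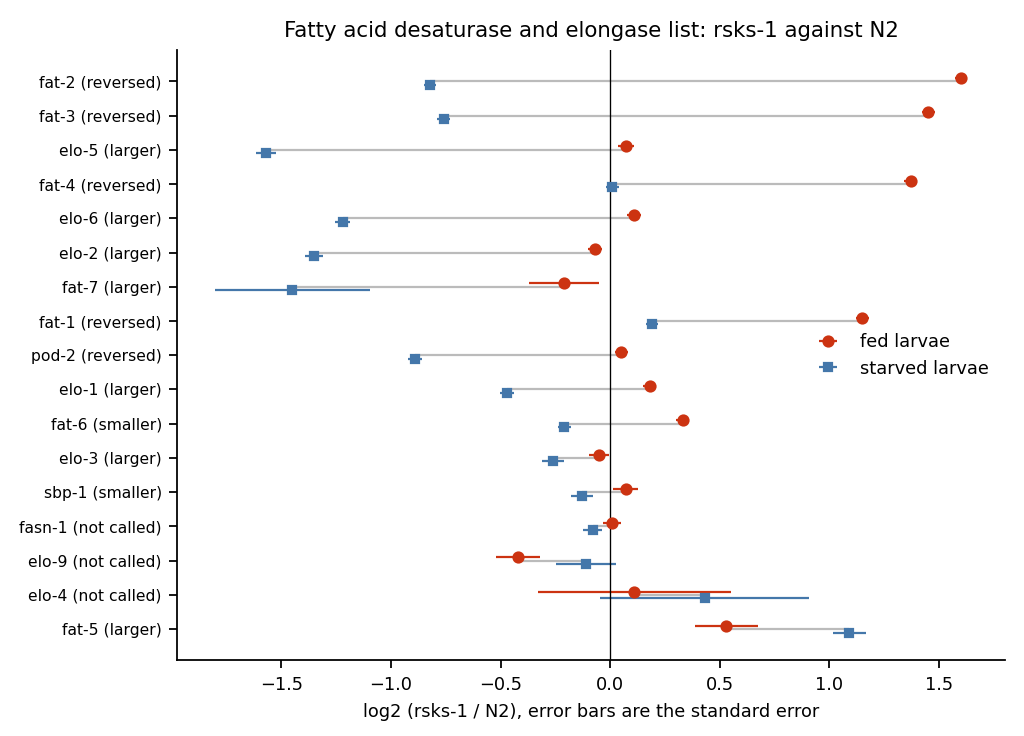
For each of the 17 genes (vertical axis, class in brackets) the log2 ratio of rsks-1 to N2 is plotted for fed larvae (circles) and starved larvae (squares) with its standard error as bars. fat-2 lies at 1.6 fed and -0.82 starved, fat-4 lies at 1.37 fed and 0.01 starved, and elo-2, elo-5 and elo-6 are low in rsks-1 when starved; the gap between the symbols is the difference of responses.

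Of the 7 elongases, 5 rose on feeding in both strains, and more in rsks-1. elo-5, which acts in the synthesis of branched-chain fatty acids, had 345, 351 and 348 CPM in rsks-1 fed and 43.7, 41.8 and 44.8 CPM in rsks-1 starved libraries, against 341, 326 and 327 CPM in N2 fed and 132, 128 and 128 CPM in N2 starved libraries. The fed libraries of the strains lay close together, with a difference of 0.07 that was not called, and the rsks-1 starved libraries were far below the N2 starved ones, so the larger rise came from the starved level (1.64, SE 0.058, adjusted p = 3.42e-53). elo-6, a partner of elo-5 in that synthesis, and elo-2, which elongates palmitic acid, differed likewise, with fed differences of 0.11 and -0.07 between rsks-1 and N2 and starved differences of -1.22 and -1.35. elo-1 rose by 1.31 in rsks-1 and 0.66 in N2. elo-3 rose by 1.39 in rsks-1 and 1.18 in N2, and elo-4 and elo-9 had no called difference.

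The last 3 members act before or above these enzymes. pod-2, acetyl-CoA carboxylase, was reversed through the starved level, with 883 ± 27.9 CPM in rsks-1 fed and 626 ± 7.43 CPM in rsks-1 starved larvae, against 855 ± 34.5 CPM in N2 fed and 1157 ± 32 CPM in N2 starved larvae (0.93, SE 0.043, adjusted p = 6.64e-41). fasn-1, fatty acid synthase, rose by 1.70 in rsks-1 and 1.61 in N2, a difference of 0.09, SE 0.06 that was not called. sbp-1, the worm's SREBP, the transcription factor of lipid synthesis, differed by 0.20, SE 0.075 (adjusted p = 0.0345). In raga-1 larvae fat-2 changed by -0.20 on feeding and fat-3 by -0.45, and the rsks-1 response exceeded the raga-1 response by 1.36, SE 0.039, adjusted p = 3.78e-63 for fat-2 and 1.11, SE 0.042, adjusted p = 1.78e-50 for fat-3. Of all 14073 genes, 44.0% had a called difference between the rsks-1 and the raga-1 response, 25.3% with the rsks-1 response more positive and 18.8% with it more negative. Intestine markers, whose tissue makes most of the larva's lipid, are given with the digestive genes.

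The reversals of at least 1.5-fold in each strain were 15 genes, of which 9 rose on feeding in rsks-1 and fell in N2. Beside fat-2, fat-3 and fat-4 they include ech-9, a gene for an enoyl-CoA hydratase family enzyme, syp-3, a gene of the meiotic synaptonemal complex, and rme-2, the yolk receptor. These last 3 had means of at most 4.39 CPM in the rsks-1 and N2 groups, while ech-9 averaged 63.0 CPM in raga-1 starved larvae. The 15 were counted without a limit on level, and further members with sequence names were near the floor. Among them W08E12.4 had 0 counts in N2 fed and 6 in N2 starved libraries, and F20B10.3 had 0 in N2 fed libraries. Also among the 15 were cpr-9, a cathepsin B-like protease, and col-80, a collagen. cpr-9 fell by 0.67 in rsks-1 and rose by 0.64 in N2. col-80 fell by 1.19 in rsks-1 and rose by 0.61 in N2, with the levels differing in both states. ugt-44, a UDP-glucuronosyltransferase, rose by 0.56 in rsks-1 and fell by 1.07 in N2, with 41.9, 40.3 and 44.3 CPM in rsks-1 fed and 28.7, 29.1 and 28.1 CPM in rsks-1 starved libraries against 15.8, 13.8 and 13.7 CPM in N2 fed and 31.9, 28.3 and 30.8 CPM in N2 starved libraries. Only its N2 fed libraries were low.

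Many abundant genes fell on feeding in N2 and stayed near their starved level in rsks-1. The limits used to collect them, a group mean that reaches 100 CPM and a difference of at least 0.7 on the log2 scale, were chosen after the values were seen, so their number is a description. Of 56 such lost or reversed genes, 37 fell on feeding in N2, and the fed level carried the difference in 26 of the 37, the starved level in 5 and both in 6. abcf-2, an ABC-F family ATPase, averaged 2578 ± 33.3 CPM in rsks-1 fed and 2142 ± 14.2 CPM in rsks-1 starved larvae, against 918 ± 16.11 CPM in N2 fed and 1949 ± 6.34 CPM in N2 starved larvae (SD, n = 3 each). The N2 fed libraries alone were low, and the difference was 1.35, SE 0.038, adjusted p = 1.21e-63.

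The genes described next, apart from mrps-11, which is not among the 37, were picked out of the 37 after their values were seen. nog-1, a nucleolar GTPase of large-subunit assembly, had 1698, 1749 and 1671 CPM in rsks-1 fed and 2105, 2107 and 2097 CPM in rsks-1 starved libraries, against 720.1, 718 and 726 CPM in N2 fed and 1983, 1987 and 2006 CPM in N2 starved libraries. It fell by 0.30 in rsks-1 and fell by 1.47 in N2, and the starved levels lay close together (1.16, SE 0.038, adjusted p = 1.87e-56). rpl-24.2, related to a ribosome assembly factor, averaged 515 ± 7.51 CPM in rsks-1 fed and 484 ± 6.9 CPM in rsks-1 starved larvae, against 202 ± 7.3 CPM in N2 fed and 408 ± 7.92 CPM in N2 starved larvae. It was the single member of the ribosomal protein list with a positive difference (1.1, SE 0.046, adjusted p = 1.51e-45).

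The same pattern of a low N2 fed level was seen in lpd-7, the pescadillo homologue (0.77, SE 0.043), znf-593, a zinc finger gene (1.38, SE 0.053), pno-1, of small-subunit maturation (0.88, SE 0.049), and dohh-1, which completes the hypusine modification of eIF5A (0.99, SE 0.055). It was also seen in adss-1, an enzyme of adenine nucleotide synthesis (1.17, SE 0.041), cytb-5.2, a cytochrome b5 (1.5, SE 0.046), and the mitochondrial ribosomal protein genes mrps-11 (0.93, SE 0.069), which was smaller and not lost, and mrpl-41 (0.79, SE 0.073). In all of these the difference was called, and the fed difference between rsks-1 and N2 ran from 0.57 for mrpl-41 to 1.90 for cytb-5.2. lpin-1, which encodes lipin, was different in that its starved level was low in rsks-1, with 123 ± 6.55 CPM in rsks-1 fed and 134 ± 4.3 CPM in rsks-1 starved larvae, against 115 ± 3.13 CPM in N2 fed and 228 ± 8.33 CPM in N2 starved larvae.

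In raga-1 larvae the change on feeding lay within 0.5 of 0 on the log2 scale in 31 of the 37 genes. The share of all genes within that limit in raga-1 was not computed. Whether these genes changed less in raga-1 than genes in general was therefore not tested, and the count alone does not show a response lost in raga-1. The difference between the rsks-1 and raga-1 responses was not called in 13 of the 37 and was called in the others, beside 44.0% of all genes. For nog-1 the changes were -0.30 in rsks-1 and -0.42 in raga-1, which differed by 0.12, SE 0.038, adjusted p = 0.00699. For adss-1 they were -0.38 in rsks-1 and -0.44 in raga-1, a difference of 0.06, SE 0.041 that was not called. Both mutants are compared here with the same N2 libraries, which is why their values are given side by side and not as support for each other.

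The other 19 abundant genes rose on feeding in N2, and in rsks-1 they fell or kept at most 25% of that log2 change. crt-1, calreticulin of the endoplasmic reticulum, averaged 1237 ± 11.7 CPM in rsks-1 fed and 978 ± 20.3 CPM in rsks-1 starved larvae, against 2616 ± 46.1 CPM in N2 fed and 959 ± 30.5 CPM in N2 starved larvae. The rise in N2 was 1.45 and that in rsks-1 0.34, with the deficit at the fed level (-1.11, SE 0.038, adjusted p = 7.91e-54). bcf-1 was reversed at the fed level (-1.28, SE 0.054, adjusted p = 4.61e-17). mup-4, which encodes a hypodermal attachment protein, was lost through the starved level, where rsks-1 exceeded N2 by 0.88, SE 0.035, adjusted p = 2.46e-48.

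**Figure D4:**
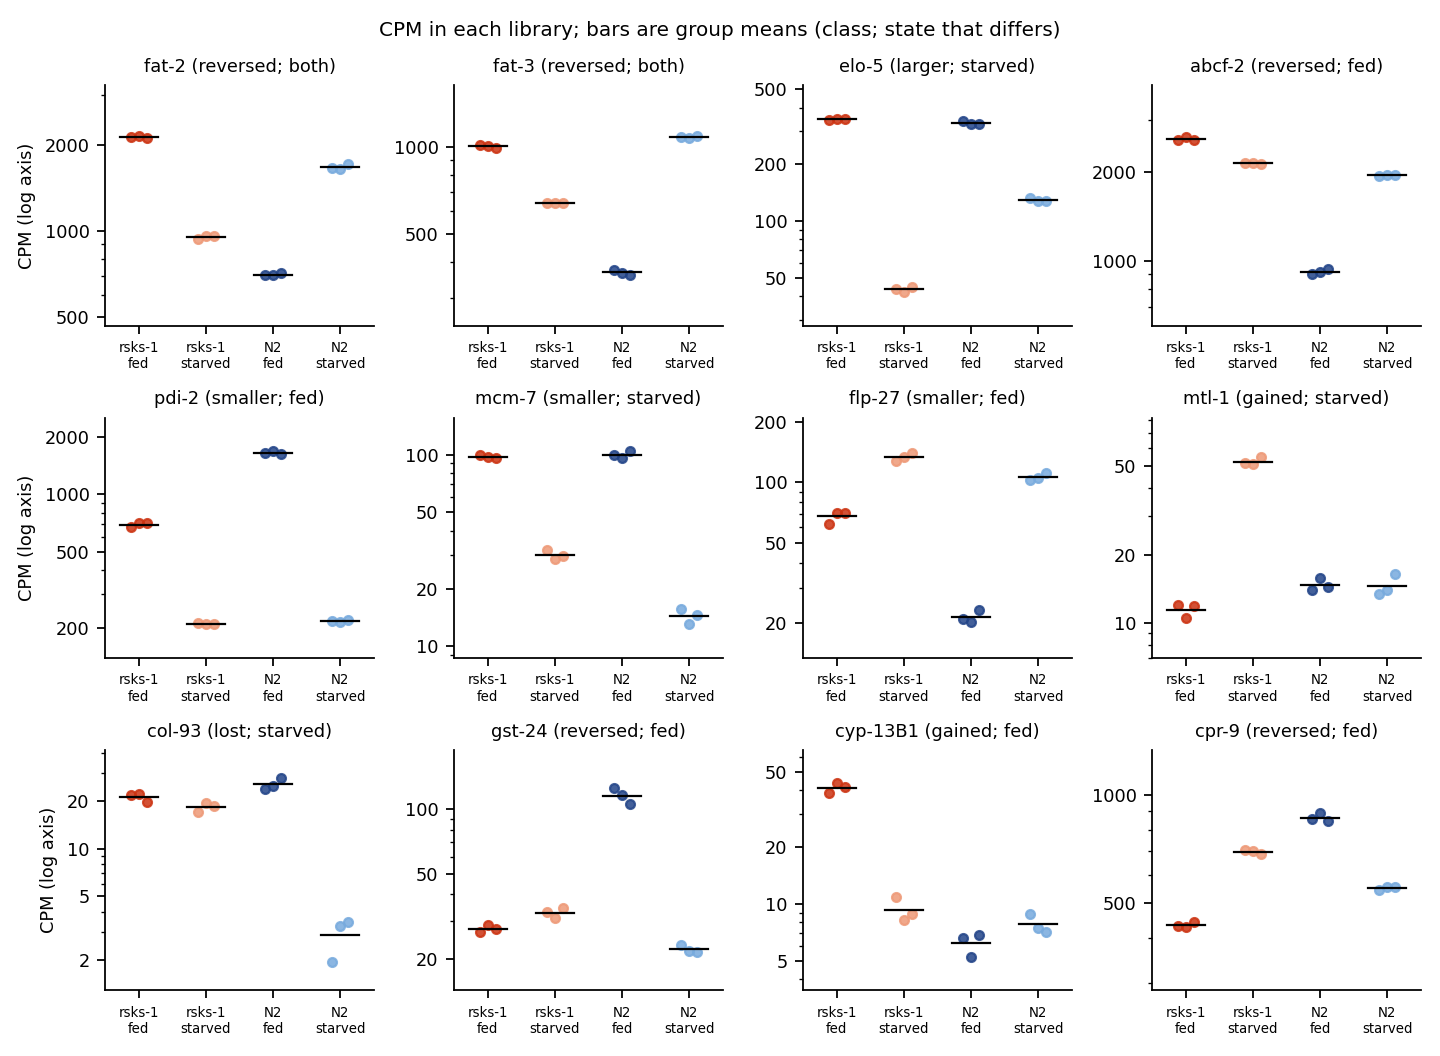
CPM on a log axis in each library of rsks-1 fed, rsks-1 starved, N2 fed and N2 starved larvae for fat-2, fat-3, elo-5, abcf-2, pdi-2, mcm-7, flp-27, mtl-1, col-93, gst-24, cyp-13B1 and cpr-9, with a line at each group's mean. For fat-2 and fat-3 the fed points lie above the starved points in rsks-1 and below them in N2. For col-93 the N2 starved points alone are low. For mcm-7 the starved points of both strains lie below the fed points, and those of N2 are the lowest. For pdi-2 the rsks-1 fed points fall short of the N2 fed points.

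Genes for protein folding and turnover mostly rose on feeding in both strains and rose less in rsks-1. Of 39 chaperone and stress genes of the endoplasmic reticulum, 30 had a negative difference and none a positive one, with a median of -0.56 on the log2 scale. The fed level carried 27 of the 30, and the median rsks-1 to N2 difference was -0.55 in fed and -0.00 in starved larvae. pdi-2, a protein disulfide isomerase, had 672, 705 and 704 CPM in rsks-1 fed and 213, 209.6 and 209.6 CPM in rsks-1 starved libraries, against 1648, 1677 and 1618 CPM in N2 fed and 217, 216 and 221 CPM in N2 starved libraries. The starved libraries lay close together and the rsks-1 fed libraries all lay far below the N2 fed ones (-1.20, SE 0.043, adjusted p = 6.71e-52). hsp-3, a BiP homologue, rose by 1.46 in rsks-1 and 2.61 in N2, with a fed difference of -1.13 and a starved difference of 0.02. In raga-1 larvae pdi-2 changed by 0.05 and hsp-3 by 0.19, less than in rsks-1 by 1.67, SE 0.042, adjusted p = 8.16e-69 and 1.26, SE 0.04, adjusted p = 1.31e-58.

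Of 40 cytosolic and mitochondrial chaperones, 24 had a negative difference and none a positive one (median -0.31), 17 of them through the fed level. hsp-1, the constitutive cytosolic HSP70, averaged 2513 ± 26.1 CPM in rsks-1 fed and 522 ± 15.3 CPM in rsks-1 starved larvae, against 4010.4 ± 69.9 CPM in N2 fed and 387 ± 2.87 CPM in N2 starved larvae (-1.1, SE 0.039, adjusted p = 3.33e-53). Of 33 proteasome subunits, 31 had a negative difference and none a positive one (median -0.44), and here both states took part. Their median rsks-1 to N2 difference was -0.28 in fed and 0.21 in starved larvae, with 16 genes assigned to both states, 11 to the fed and 3 to the starved level. rpn-12, a lid subunit, rose by 1.13 in rsks-1 and 1.87 in N2, with a fed difference of -0.42 and a starved difference of 0.32. Under library totals these 3 lists had 28, 21 and 31 negative and 0, 1 and 0 positive genes.

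Translation genes showed a smaller and less uniform reduction. Of 46 translation factors, 27 had a negative and 4 a positive difference (median -0.22), and of 21 cytosolic aminoacyl-tRNA synthetases 15 had a negative and 1 a positive one (median -0.29). eef-1A.2, an elongation factor, rose by 1.65 in rsks-1 and 2.66 in N2 (-1.01, SE 0.037, adjusted p = 6.71e-52), but it is close in sequence to its paralogue, between which reads may be divided. For cytosolic ribosomal proteins 46 of 81 had a negative and 1 a positive difference with a median of -0.12, which library totals turned into 9 and 2 genes and a median of -0.01, so the small reduction depends on the scaling. Their summed level was 222187.5 to 232510.6 CPM in rsks-1 fed and 160681.8 to 163411.5 CPM in rsks-1 starved libraries, against 241772.1 to 250963.1 CPM in N2 fed and 155370.8 to 164188.4 CPM in N2 starved libraries. With the scaling used here the fed ranges of the strains did not overlap and the starved ranges did. These sums were not recomputed under library totals, so the gap between the fed ranges may depend on scaling too.

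Of 52 ribosome biogenesis genes, 49 rose on feeding in rsks-1 (35.7% of all genes did) and 49 in N2 (36.5%), and their differences ran in both directions. Of the 52 members, 12 had a negative and 7 a positive difference, with a median of -0.01. Library totals gave 11 negative and 15 positive genes with a median of 0.09, so no direction holds across scalings. fib-1, fibrillarin, rose by 2.95 in rsks-1 and 3.48 in N2 (-0.52, SE 0.042, adjusted p = 2.06e-21), and nol-56, its partner in ribosomal RNA methylation, was alike (-0.50, SE 0.046). nog-1 and lpd-7 were the members with the largest positive values. In raga-1 larvae fib-1 rose by 1.58, less than in rsks-1 by 1.37, SE 0.042, adjusted p = 1.63e-60. Of 70 mitochondrial ribosomal proteins 6 had a positive and 1 a negative difference (median -0.01), and library totals gave 9 and 0 with a median of 0.09. Among 46 splicing factors 20 were negative and 3 positive (median -0.25, and 12 and 3 under library totals), with snr-2, a core spliceosomal protein, at -0.58.

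DNA replication and cell cycle genes rose less on feeding in rsks-1, and their levels differed between the strains in starved larvae. Of 64 genes, 41 had a negative difference and none a positive one, with a median of -0.58, and library totals gave 34 and 0. The median rsks-1 to N2 difference was -0.06 in fed and 0.55 in starved larvae, and the starved level carried 34 of the 41. mcm-7, a subunit of the replicative helicase, had 99.4, 97 and 96.3 CPM in rsks-1 fed and 31.9, 28.7 and 29.6 CPM in rsks-1 starved libraries, against 99.9, 96.5 and 104 CPM in N2 fed and 15.8, 13.1 and 14.5 CPM in N2 starved libraries. Fed libraries of the strains overlapped, while every rsks-1 starved library lay above every N2 starved library (-1.09, SE 0.10, adjusted p = 8.79e-17).

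The helicase subunits mcm-2 and mcm-3 followed mcm-7, with starved differences of 0.81, SE 0.082 and 0.96, SE 0.075 between rsks-1 and N2. plk-1, a mitotic kinase, differed by 0.92, SE 0.066, adjusted p = 3.52e-25 in starved and -0.31 in fed larvae. blmp-1, a transcription factor of larval timing, and mes-4, a histone methyltransferase of the germ line, likewise differed when starved, by 0.52 and 0.46. Their fed differences of -0.04 and -0.03 were not called. mes-4 went against its list, germ granule and small RNA genes, of which 1 of 39 was higher and 16 lower in starved rsks-1 larvae. Over all genes 15.1% were higher and 11.9% lower when starved. Germ line markers had none higher and 4 lower of 10 when starved. The difference of responses of mes-4 lost its call under library totals (adjusted p = 0.0695 in edgeR's fit) and without any of 4 single libraries. Among 33 histone genes 2 were positive and 4 negative (median -0.02), 2 and 2 under library totals, and close copies of these genes may share reads. Germ line markers were low in all groups, with summed levels of 151.7 to 164.9 CPM in rsks-1 fed, 140.8 to 150.0 CPM in rsks-1 starved, 192.0 to 207.8 CPM in N2 fed and 172.2 to 178.7 CPM in N2 starved libraries, and 1 of 10 had a positive and 1 a negative difference. In whole larvae, fewer cells of a type and less RNA per cell cannot be told apart.

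Of 18 body wall muscle markers, 16 had a negative difference and none a positive one (median -0.44), with a median starved difference of 0.31 between rsks-1 and N2. Their summed level was 13224.5 to 13453.8 CPM in rsks-1 fed and 18695.1 to 18777.8 CPM in rsks-1 starved libraries, against 14702.4 to 15007.4 CPM in N2 fed and 14730.8 to 14867.4 CPM in N2 starved libraries. The rsks-1 starved libraries lay above the other 3 groups. myo-3, a body wall myosin heavy chain, averaged 686 ± 24.1 CPM in rsks-1 fed and 1204 ± 24.8 CPM in rsks-1 starved larvae, against 907 ± 31.3 CPM in N2 fed and 818 ± 12.9 CPM in N2 starved larvae, a reversal (-0.96, SE 0.042, adjusted p = 1.56e-43). Its N2 rise was 0.15 on the log2 scale, and the direction of so small a change may depend on scaling. The part of muscle content in the starved differences of other genes was not tested. Pharynx markers had 1 positive and 4 negative differences among 12 (median -0.00), 1 and 2 under library totals, and summed levels of 1605.1 to 1649.8 CPM in rsks-1 fed, 3291.9 to 3377.0 CPM in rsks-1 starved, 2426.2 to 2531.2 CPM in N2 fed and 4074.6 to 4185.8 CPM in N2 starved libraries.

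Neuropeptide genes fell less on feeding in rsks-1. Of 99 tested, 79 fell on feeding in rsks-1 and 89 in N2, where 35.2% and 37.4% of all genes fell. The difference was positive in 73 and negative in none, with a median of 0.55, and library totals gave 80 and 0. The response was smaller in 64 of the 73. The fed level carried 69 of the 73, with median rsks-1 to N2 differences of 0.81 in fed and 0.20 in starved larvae. flp-27, a FMRFamide-like peptide gene, had 62.5, 70.9 and 70.5 CPM in rsks-1 fed and 128, 134 and 139.7 CPM in rsks-1 starved libraries, against 21.1, 20.2 and 23.2 CPM in N2 fed and 103, 105 and 111.8 CPM in N2 starved libraries. The N2 fed libraries were the low ones, and the rsks-1 starved libraries lay above the N2 starved ones by a smaller margin (1.34, SE 0.086, adjusted p = 8.31e-29). nlp-31, an antimicrobial-type peptide gene, fell by 1.26 in rsks-1 and fell by 3.23 in N2 (1.96, SE 0.28, adjusted p = 7.84e-06).

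Neuron markers had positive differences where any was called. Of 22 markers 7 were positive and none negative (median 0.16), and library totals gave 14 and 0 with a median of 0.26. Their summed level was 3127.1 to 3214.0 CPM in rsks-1 fed and 4738.9 to 4855.6 CPM in rsks-1 starved libraries, against 2593.9 to 2648.2 CPM in N2 fed and 4481.0 to 4586.1 CPM in N2 starved libraries. Among them ida-1, of dense-core vesicles, and the neuropeptide-processing enzymes egl-3 and egl-21 had differences of 0.41, 0.27 and 0.27. The part of neuronal content in the neuropeptide result was not tested. Of 21 insulin-like peptide genes 8 were positive and none negative (median 0.50), 5 through the fed level. ins-17 fell by 0.84 in rsks-1 and fell by 1.67 in N2 (0.83, SE 0.08, adjusted p = 5.34e-17). daf-28, an agonist of the insulin receptor, rose on feeding in both, with 88.7 ± 6.66 CPM in rsks-1 fed and 25.7 ± 0.995 CPM in rsks-1 starved larvae, against 64.8 ± 1.41 CPM in N2 fed and 34.4 ± 1.14 CPM in N2 starved larvae, a larger rise in rsks-1 (0.88, SE 0.091, adjusted p = 3.43e-15).

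**Figure D5:**
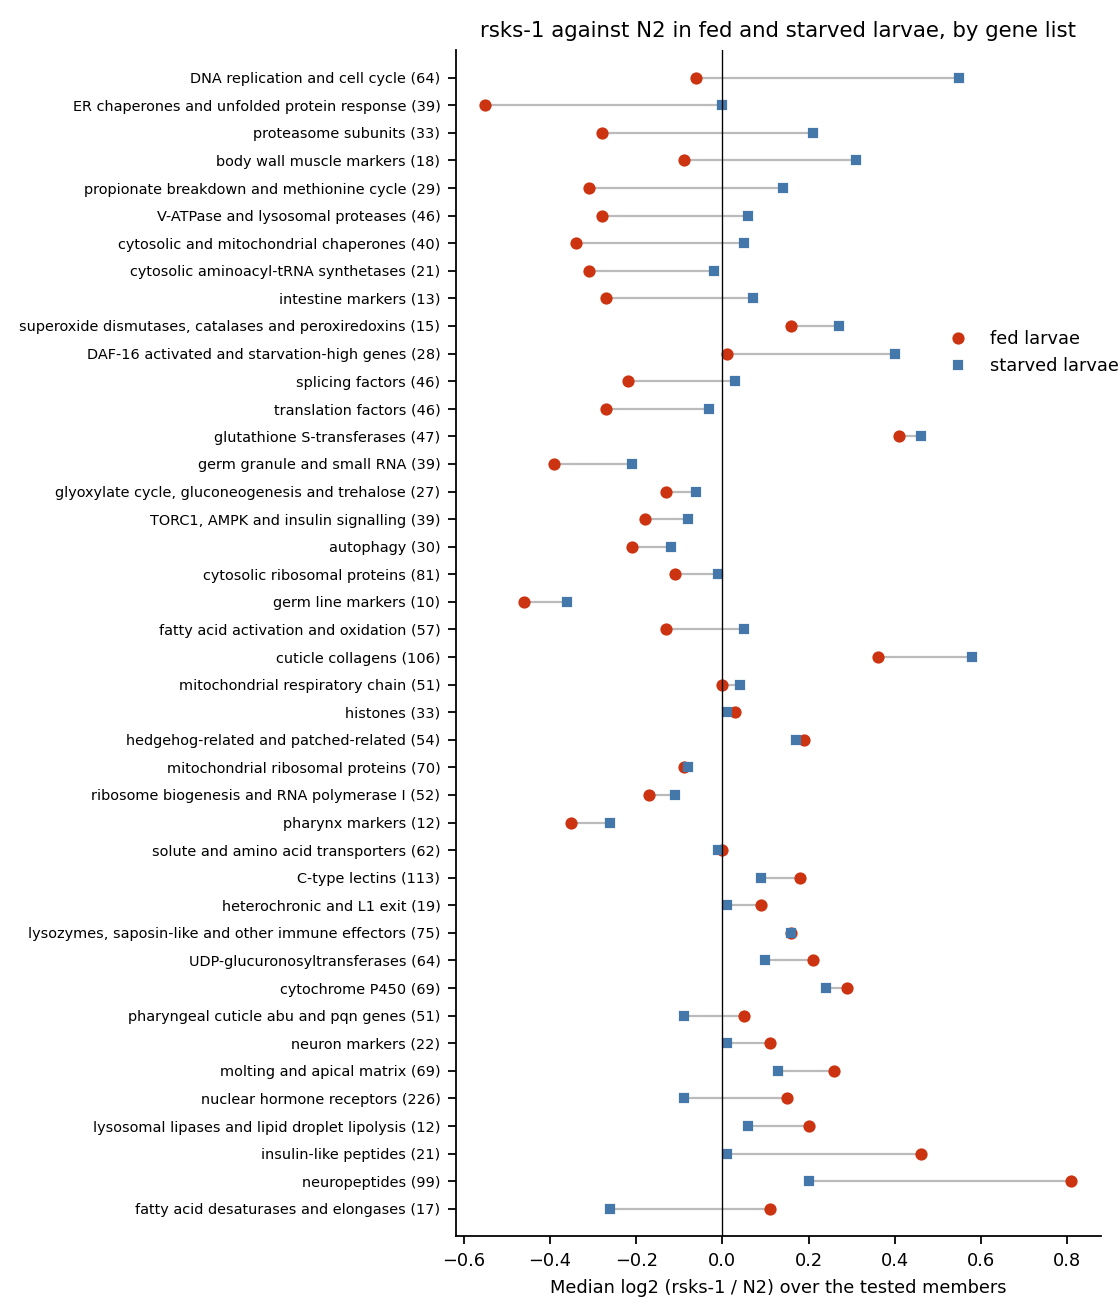
For each gene list with at least 10 tested members, the median log2 ratio of rsks-1 to N2 (horizontal axis) is plotted for fed larvae (circles) and starved larvae (squares), with the number tested in brackets. Neuropeptides lie at 0.81 fed and 0.20 starved, endoplasmic reticulum chaperones at -0.55 and -0.00, and DNA replication genes at -0.06 and 0.55, so the lists differ in the state that separates the strains.

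Of 46 V-ATPase and lysosomal protease genes, 32 were lower and 7 higher in rsks-1 fed than in N2 fed larvae. Over all genes 22.6% were lower and 17.4% higher. The difference of responses was negative in 29 and positive in 6 (median -0.34), and the fed level carried 24 of the 35. cpr-5, a cathepsin B-like protease, averaged 208 ± 13.4 CPM in rsks-1 fed and 139 ± 6.1 CPM in rsks-1 starved larvae, against 881 ± 10.4 CPM in N2 fed and 273 ± 4.76 CPM in N2 starved larvae. It was lower in rsks-1 in both states, with rsks-1 to N2 differences of -2.08 fed and -0.98 starved (-1.1, SE 0.049, adjusted p = 8.54e-43). asp-12, an aspartic protease, rose on feeding in N2 by 2.01 with no called change in rsks-1 (-1.72, SE 0.30, adjusted p = 9.4e-07). Of 13 intestine markers 8 were negative and none positive (median -0.27), 7 and 1 under library totals, with a summed level of 8005.2 to 8201.4 CPM in rsks-1 fed and 8059.1 to 8285.6 CPM in rsks-1 starved libraries, against 10706.8 to 10795.8 CPM in N2 fed and 7469.0 to 7626.3 CPM in N2 starved libraries. The N2 fed libraries alone were high, and cpr-1, asp-1 and vha-6 belong to both lists. The part of intestinal content in these results was not tested.

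Of 29 genes of the methionine cycle and the propionate pathway, 20 had a negative and 7 a positive difference (median -0.39), 16 of them through the fed level. The response was smaller in 14 of these, lost in 3, larger in 6, gained in 3 and of no class in 1. sams-1, the S-adenosylmethionine synthetase, had 740.2, 744 and 710.4 CPM in rsks-1 fed and 341, 340.4 and 337 CPM in rsks-1 starved libraries, against 1252, 1319 and 1297 CPM in N2 fed and 307, 293 and 296 CPM in N2 starved libraries. Feeding raised it in both strains and the rsks-1 fed libraries stayed below the N2 fed ones (-1.0, SE 0.043, adjusted p = 3.09e-44). acdh-1, an acyl-CoA dehydrogenase of propionate breakdown, rose by 1.33 in rsks-1 and 2.65 in N2 (-1.32, SE 0.069, adjusted p = 1.63e-36). cth-1, a cystathionine gamma-lyase, went the other way, rising by 0.91 in rsks-1 with no called change in N2 (0.91, SE 0.12, adjusted p = 3.2e-11).

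Starvation and stress genes separated the strains mainly before feeding. Of 28 genes activated by DAF-16 or high in starvation, 10 had a negative and 5 a positive difference (median -0.25), with a median starved difference of 0.40 between rsks-1 and N2, and 10 of the 15 were assigned to the starved level. sod-3, a mitochondrial superoxide dismutase and DAF-16 target, averaged 1.87 ± 0.519 CPM in rsks-1 fed and 15.8 ± 0.505 CPM in rsks-1 starved larvae, against 1.53 ± 0.0445 CPM in N2 fed and 3.64 ± 0.532 CPM in N2 starved larvae. The rsks-1 starved larvae alone were high (-1.88, SE 0.38, adjusted p = 2.51e-05), as for mtl-1. lbp-7, a lipid-binding protein outside this list, and its member gst-4, a glutathione S-transferase induced by SKN-1, had starved differences of 1.42, SE 0.063 and 1.05, SE 0.056. Without N2 fed replicate 3 the positive genes of this list numbered 3.

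Of 47 glutathione S-transferases 15 were negative and 5 positive (median -0.16), 11 through the starved level, and library totals gave 9 and 7. gst-20 was reversed, with changes of -0.94 in rsks-1 and 0.34 in N2. The small N2 rise of gst-20 may depend on scaling. Among 15 superoxide dismutases, catalases and peroxiredoxins 5 were negative and 1 positive (median -0.27), and the peroxisomal catalase ctl-2 averaged 79.5 ± 0.775 CPM in rsks-1 fed and 439 ± 5.86 CPM in rsks-1 starved larvae, against 78 ± 5.6 CPM in N2 fed and 280.2 ± 3.37 CPM in N2 starved larvae. The fed levels did not differ by the test and the starved level was higher in rsks-1 by 0.65, SE 0.035, adjusted p = 1.28e-35. Of the 6 pud genes 1 was positive and 2 negative. pud-3 and pud-4 were higher in rsks-1 in both states, pud-3 by 2.14 fed and 3.32 starved, and close copies in this family may share reads.

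Of 27 genes for gluconeogenesis, trehalose metabolism and the glyoxylate cycle 12 were negative and 5 positive with a median of -0.13, and library totals gave 7 and 8, so no direction holds across scalings. In 11 of the 17 the response was larger, in 5 smaller and in 1 lost. pck-1, phosphoenolpyruvate carboxykinase, fell by 1.23 in rsks-1 and fell by 0.41 in N2 (-0.81, SE 0.045, adjusted p = 1.44e-34), with rsks-1 above N2 when starved and below it when fed. pyc-1, pyruvate carboxylase, fell by 2.55 in rsks-1 and fell by 1.81 in N2 (-0.74, SE 0.049, adjusted p = 1.47e-27). Of 57 fatty acid activation and oxidation genes 18 were negative and 14 positive (median -0.10), and library totals gave 17 and 20 with a median of 0.01, so they had no common direction. The response was smaller in 14, larger in 10, gained in 4, reversed in 3 and lost in 1. acox-1.2, an acyl-CoA oxidase, rose by 2.83 in rsks-1 and 0.92 in N2, through the fed level. ech-7 rose by 3.03 in rsks-1 and 1.21 in N2, through the starved level.

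Of 12 lipases and lipid droplet genes 3 were positive and 1 negative (median 0.25), and the response was smaller in 3 and larger in 1. lipl-3 fell less in rsks-1 and lipl-2 fell more, with changes of -4.0 in rsks-1 and -2.99 in N2 (-1.02, SE 0.20, adjusted p = 2.46e-05), so members of this lipase family diverged. atgl-1, the lipid droplet triglyceride lipase, differed by 0.34. Of 30 autophagy genes 6 were negative and 2 positive (median -0.12), and library totals gave 1 and 4, so no direction holds across scalings. The count of 6 also depended on single libraries, being 3 without N2 fed replicate 1, N2 starved replicate 3 or rsks-1 fed replicate 3 and 2 without rsks-1 starved replicate 2.

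Genes of nutrient signalling itself changed by small amounts. Of 39 genes of TORC1, AMPK and insulin signalling 13 were negative and 5 positive (median -0.12), 12 through the fed level, and library totals gave 9 and 9. daf-15, which encodes Raptor, fell by 0.55 in rsks-1 with no called change in N2 (-0.51, SE 0.061, adjusted p = 3.01e-12). let-363, the TOR kinase, fell by 0.20 in rsks-1 and rose by 0.15 in N2 (-0.35, SE 0.064, adjusted p = 5.18e-06). The direction of so small an N2 change may depend on scaling. raga-1 was 47.4 ± 2.42 CPM in rsks-1 fed and 46.9 ± 3.61 CPM in rsks-1 starved larvae, against 64.1 ± 1.44 CPM in N2 fed and 50.1 ± 1 CPM in N2 starved larvae, so its rise in N2 was lost (-0.34, SE 0.10, adjusted p = 0.00533). Under library totals the raga-1 difference was -0.23 with an adjusted p of 0.0736 in edgeR's fit, and the call was lost. argk-1, an arginine kinase that was looked at because it is known to be raised in adult rsks-1 worms, was 10, 8.98 and 6.18 CPM in rsks-1 fed and 1.54, 0.863 and 1.16 CPM in rsks-1 starved libraries, against 5.04, 4.8 and 5.54 CPM in N2 fed and 2.47, 3.4 and 2.86 CPM in N2 starved libraries. It was higher in rsks-1 when fed (0.70, SE 0.20, adjusted p = 0.00306) and lower when starved (-1.33, SE 0.28, adjusted p = 6.65e-05).

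Of 106 cuticle collagens 20 were negative and 8 positive (median -0.07), a called share close to the 26.6% of all genes, and library totals gave 16 and 10 with a median of 0.03. The collagens had median rsks-1 to N2 differences of 0.36 in fed and 0.58 in starved larvae. col-160 averaged 484 ± 26.7 CPM in rsks-1 fed and 523 ± 8.46 CPM in rsks-1 starved larvae, against 586 ± 23.8 CPM in N2 fed and 225 ± 8.14 CPM in N2 starved larvae, and the N2 starved larvae alone were low (-1.49, SE 0.05, adjusted p = 1.41e-33). The positive collagens numbered 5 without N2 fed replicate 1. Of 69 molting and apical matrix genes 13 were positive and 2 negative (median 0.21). noah-1, an apical matrix protein, had 43.8, 41.5 and 42.6 CPM in rsks-1 fed and 5.23, 8.63 and 6.13 CPM in rsks-1 starved libraries, against 16.8, 18.2 and 17.1 CPM in N2 fed and 3.94, 5.33 and 5.8 CPM in N2 starved libraries, a larger rise in rsks-1 (0.88, SE 0.19, adjusted p = 9.5e-05).

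fbn-1, a fibrillin-like matrix gene, rose by 4.1 in rsks-1 and 3.28 in N2, whereas in raga-1 larvae it fell by 2.06. The call of its rsks-1 to N2 difference was lost without the count filter (adjusted p = 0.0576 in edgeR's fit) and without any of 7 single libraries (0.0518 to 0.165). The rsks-1 and raga-1 responses of noah-1 and fbn-1 differed by 4.30, SE 0.17, adjusted p = 1.75e-47 and 6.16, SE 0.25, adjusted p = 6.56e-47, the widest gaps between the mutants among the genes the naming rule selected. Of 54 hedgehog-related and patched-related genes 9 were negative and 6 positive (median -0.02), and library totals gave 8 and 14 with a median of 0.09, so no direction holds across scalings. grd-3, a groundhog-family gene, was reversed through the starved level, with 28.9, 27.8 and 22.9 CPM in rsks-1 fed and 33.3, 35.5 and 33.9 CPM in rsks-1 starved libraries against 19.9, 18.1 and 17.2 CPM in N2 fed and 5.04, 5.49 and 4.11 CPM in N2 starved libraries (-2.30, SE 0.15, adjusted p = 1.13e-27). grd-10 and grd-13 also had high starved levels in rsks-1, by 2.08 and 2.76. Hypodermis markers had 3 positive and no negative difference among 9 (median 0.27), with summed levels of 698.2 to 721.8 CPM in rsks-1 fed, 620.6 to 628.1 CPM in rsks-1 starved, 612.3 to 641.5 CPM in N2 fed and 594.8 to 601.7 CPM in N2 starved libraries. Their part in these results was not tested.

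Detoxification and immune families held large single differences in both directions. Of 69 cytochrome P450 genes 14 were positive and 9 negative (median 0.11), and of 64 UDP-glucuronosyltransferases 14 were positive and 10 negative (median 0.11). ugt-41 rose by 2.68 in rsks-1 and 4.38 in N2, with a starved difference of 1.64. Of 113 C-type lectins 18 were positive and 8 negative (median 0.03), beside 10.8% and 15.8% of all genes. Of 75 lysozymes, saposin-like and other immune effectors 15 were positive and 14 negative (median 0.11), the 15 becoming 9 without N2 fed replicate 3. irg-4 averaged 339 ± 6.02 CPM in rsks-1 fed and 4.25 ± 0.535 CPM in rsks-1 starved larvae, against 618 ± 1.83 CPM in N2 fed and 2.38 ± 0.487 CPM in N2 starved larvae (-1.71, SE 0.15, adjusted p = 1.79e-18), while spp-17, a saposin-like gene, rose more in rsks-1 (1.43, SE 0.31, adjusted p = 0.00385). The irg-4 rise was smaller in rsks-1.

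Of 226 nuclear hormone receptor genes 44 had a positive and 3 a negative difference (median 0.24), beside 10.8% and 15.8% of all genes. The 47 called are a smaller share than the 26.6% of all genes, and most of them were positive. The fed level carried 23 of the 47, and library totals gave 78 positive and 3 negative. nhr-18 fell by 1.5 in rsks-1 and fell by 2.90 in N2 (1.40, SE 0.17, adjusted p = 2.05e-12). Of 51 pharyngeal cuticle genes of the abu and pqn families 15 were positive and 8 negative (median 0.12), the 15 becoming 9 without N2 fed replicate 3. pqn-48 averaged 173 ± 4.27 CPM in rsks-1 fed and 267 ± 3.62 CPM in rsks-1 starved larvae, against 60.2 ± 2.21 CPM in N2 fed and 272 ± 4.76 CPM in N2 starved larvae (1.55, SE 0.057, adjusted p = 1.8e-51).

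Respiratory chain genes, 7 positive and 10 negative of 51 with a median of -0.04, turned to 16 and 2 under library totals and have no direction that holds across scalings. Solute and amino acid transporters had 11 positive and 9 negative of 62 (median 0.00), and library totals gave 17 and 8. Germ granule and small RNA genes had 3 positive and 11 negative of 39 (median -0.15), and library totals gave 4 and 4. Heterochronic and arrest-exit genes had 3 positive and 1 negative of 19 (median 0.07), and library totals gave 5 and 1. Of the 4 coelomocyte markers cup-4 alone was positive, and its call was lost with the replicate block (adjusted p = 0.0524), DESeq2 (0.0896), relative log expression factors (0.0537), no count filter (0.054) and without any of 7 single libraries. The markers had summed levels of 53.4 to 56.9 CPM in rsks-1 fed, 55.9 to 59.8 CPM in rsks-1 starved, 55.8 to 65.2 CPM in N2 fed and 60.5 to 63.8 CPM in N2 starved libraries. The shares called in these lists lay on both sides of the 26.6% of all genes.

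Some of these counts rested on single libraries. Respiratory chain positives fell to 4 without any of N2 fed replicate 3, N2 starved replicate 3, rsks-1 fed replicate 2 or 3, or rsks-1 starved replicate 1 or 2, and its negatives to 6 without N2 starved replicate 1. Negative germ granule genes fell to 5 without N2 fed replicate 3 or rsks-1 fed replicate 3 and to 7 without rsks-1 starved replicate 3, and positive ones to 1 without N2 starved replicate 1 or 3, rsks-1 fed replicate 1 or rsks-1 starved replicate 1. Positive transporters fell to 7 without N2 starved replicate 2, and negative histone genes to 2 without N2 starved replicate 1.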

How the data were processed

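RNA-seq of whole first-stage larvae was deposited by the authors as tables of expected counts per gene and per isoform. The labels' protocols name alignment with STAR in a 2-pass procedure to a genome they call WBcel269, and the submitters' processing notes name RSEM and DESeq2 without versions; strandedness was not given in the sources used here. Their deposited gene table held 46904 identifiers, of which 2887 without a name took 1.954% of counts; isoform sums came within 1 count of the gene value for 46805 of 46817 genes. Positions were matched by gene identifier to the WBcel235 annotation and name that build.

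Columns were assigned to samples by their names. The expected counts, 0.962% of them not whole, were rounded and fitted with edgeR 4.0.16 in R 4.3.3 (limma 3.58.1): TMM scaling with factors of 0.847 to 1.15, filterByExpr with a minimum count of 10, one mean for each of the 6 groups of 3 libraries, robust quasi-likelihood dispersion with 12 residual degrees of freedom, two-sided tests and Benjamini-Hochberg adjustment over the 14073 genes tested. Every adjusted p printed comes from this fit unless another tool is named. CPM use the TMM-scaled totals. Replicate pairs differed by more than counting noise in all 18 pairs (mean chi-square per gene 2.12 to 5.99, where 1 is counting error alone), so none was counted as a repeated library. Precision is limited by 3 libraries a group; 95% counting intervals of genes with 1 to 3 counts in a group cover counting error only. The class rules were tested on constructed cases and the fit on simulated data. Of 50 genes each changed by 1.25, 1.5, 2 and 4-fold, the fit recovered 10, 22, 30 and 38, and it called 5 unchanged genes. A difference that was not called is therefore not shown to be absent.

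A response was reversed when both strains were called in opposite directions, lost when N2 was called and the absolute rsks-1 change was at most 25% of it, smaller or larger when of the same sign, and gained when only rsks-1 was called. A difference was assigned to the fed or the starved state when the strains differed there by the test and by at least 2 times the log2 difference in the other state, and otherwise to both states, to the same direction in both, or to neither. Genes named are, among those with letters-hyphen-number names and at least 10 CPM in a group, the 10 highest and 10 lowest differences, the 6 largest of each class and state, up to 4 called members of each list (2 where none was called), rsks-1 and raga-1; others are said to have been singled out later. The members, the 38 gene lists and the 7 marker lists were chosen with earlier results of these data known. No set test was run; a list is described by its counts and median.

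Alternatives were relative log expression factors, library totals alone, DESeq2 1.42.0, no count filter, at least 10 CPM in a group, a replicate block, the 12 rsks-1 and N2 libraries alone, isoform sums, each replicate left out, and other limits for classes and states. Summaries and figures used Python 3.11.15, pandas 2.3.3, numpy 2.4.6, scipy 1.17.1 and matplotlib 3.10.9.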

Additional observations from a re-analysis of the deposited data

Results flagged for a closer look

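The rsks-1 and N2 feeding responses differed by the test in 3737 genes, and the rsks-1 and raga-1 responses in 6199 genes. In each of the 6 largest reversed responses among genes named, every fed library moved one way from every starved library in rsks-1 and the opposite way in N2, with called differences of 2.41 for fat-2, 2.22 for fat-3 and 1.62 for ugt-44, which rose on feeding in rsks-1 and fell in N2, and of -2.62 for gst-24, -2.3 for grd-3 and -1.8 for col-80, which fell in rsks-1 and rose in N2, all on the log2 scale with n = 3 libraries a group and edgeR's adjusted p below 0.05.

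The gst-24 reversal was uneven, since its rsks-1 change of -0.24 (SE 0.073) was small beside the N2 change of 2.38 (SE 0.068). For fat-2 and fat-3 both changes were beyond 1.5-fold.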

How the results depend on the processing

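The count of 3737 called genes was 3410 with DESeq2, 3563 without a count filter, 3767 with relative log expression factors, 3762 with the 12 rsks-1 and N2 libraries alone and 3737 with isoform sums. Leaving out 1 library at a time gave 3400 to 3515 called genes, 1339 to 1436 positive, 2040 to 2118 negative, and 298 to 352 positive and 213 to 237 negative of at least 2-fold. It gave 1995 to 2050 smaller, 383 to 429 lost, 141 to 156 reversed, 474 to 519 larger and 266 to 314 gained responses, and 1788 to 1951 genes at the fed level, 676 to 738 at the starved level and 316 to 352 at both. The slope of response size ran from 0.724 to 0.79 and the ratio from 0.854 to 0.876.

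Scaling by library totals gave 2351 positive and 1439 negative genes. With at least 10 CPM in a group, 171 positive and 125 negative genes reached 2-fold, the slope was 0.891 and the ratio 0.908. Fewer low genes were tested in that setting, and why the slope and the ratio rose was not tested. The ratio over 4-fold genes was 0.827. With lost taken as at most 50% of the N2 change, 1079 genes were lost and 49 in no class; with lost taken as no called rsks-1 change, 11 were in no class. A limit of 1.5-fold in each strain left 15 reversed genes and 243 in no class. With 3 times for the state, 377 genes differed in the same direction and 746 in neither state; by the test alone these were 607 and 152.

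The labels give all groups the same replicate numbers. A replicate block gave 3675 called genes, 1482 positive and 2193 negative, with 3645 shared with the fit without it. Deviations of same-numbered libraries correlated at -0.118 to 0.202 (median 0.013, 18 pairs) and others at -0.136 to 0.135 (36 pairs), and 7 of 12 libraries correlated best with their own number. These values do not settle whether the numbers pair the samples, and the main fit treated the libraries as unpaired.

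Of 178 named genes, 171 stayed called with DESeq2, 169 with library totals, 174 without the filter, 175 with relative log expression factors and 176 with the block. For pud-1.1 the adjusted p was 0.341 with DESeq2 and 0.0627 with edgeR without N2 fed replicate 1, its log2 difference was 4.43 without N2 fed replicate 2, and that of poml-4 was 3.61 without N2 fed replicate 1. No gene called both in the results above and under one of these settings changed sign. Genes at a few counts in a group and paralogues that share reads carry the widest uncertainty, and which cells the RNA came from cannot be read from whole larvae.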

Other observations

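Some genes with sequence names, which the naming rule passed over, had differences as large as those described, and were singled out after their values were seen. F45D11.14 averaged 16.37 ± 1.53 CPM in rsks-1 fed and 702 ± 9.5 CPM in rsks-1 starved larvae, against 4.48 ± 0.514 CPM in N2 fed and 20.2 ± 1.45 CPM in N2 starved larvae (SD, n = 3 each). The rsks-1 starved larvae alone were high, the fall on feeding was larger in rsks-1, and edgeR's difference was -3.26, SE 0.16, adjusted p = 8.46e-38. In raga-1 larvae it fell by 3.36 on feeding.

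Y39B6A.1 averaged 33.2 ± 3.38 CPM in rsks-1 fed and 194 ± 3.24 CPM in rsks-1 starved larvae, against 65.5 ± 0.812 CPM in N2 fed and 50.8 ± 3.96 CPM in N2 starved larvae, a reversal with the levels apart in both states (-2.90, SE 0.079, adjusted p = 7.01e-65 in edgeR's fit). T23G7.3 averaged 755 ± 13.5 CPM in rsks-1 fed and 842 ± 17.8 CPM in rsks-1 starved larvae, against 125 ± 4.28 CPM in N2 fed and 684 ± 13 CPM in N2 starved larvae. Its fall in N2 was lost in rsks-1 through the fed level (2.29, SE 0.046, adjusted p = 5e-80 in edgeR's fit), as in nog-1 and abcf-2, and in raga-1 larvae it fell by 0.66.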
